A study of Homo sapiens with 6 samples.

Results

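GC-rich simple repeats without CpG sites are tandem repeats of a short unit in which at least 50% of the bases are G or C and in which no C is followed directly by a G, also across the joint between 2 copies. They were chosen by name alone from the deposited table of depth-scaled counts (CPM, which sums to a fixed total in each library) of human repeats: entries written (unit)n with a unit of 4 or more bases that met these conditions. This gave 2250 of the 7383 entries of that table, with units of 4 to 12 bases. The names fell into 510 distinct units once rotations and reverse complements were merged, so many members are different starting points or strands of the same repeat. The table listed 3 groups of H9 human embryonic stem cells, an established cell line, with 2 libraries in each: primed cells in mTeSR medium, naive-state cells in RSeT medium, and RSeT cells that were also given 10 nM DZNep and 5 nM TSA and collected after 48 hours (RSeT+DT). DZNep lowers histone methylation and TSA inhibits histone deacetylases. Total RNA came from 500K cells per sample, and the library kit keeps the strand. The labels do not say whether the 2 libraries of a group came from separate cultures, so the p-values measure only the spread between these libraries.

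Simple repeats, or microsatellites, arise when the polymerase slips on a short unit, and they lie throughout introns, untranslated regions and the space between genes. A read over such a repeat usually comes from a longer transcript that crosses it, and an entry here sums every copy in the genome, so no value belongs to 1 locus. CpG sites are the main place of DNA methylation in vertebrates, and members of this set have none within the repeat itself. Of the 2213 members whose unit does not reduce to a shorter one, 1032 had a perfect stretch of at least 20 bases, in the letters of their name or a rotation of it, in a transcript of at least 1 gene in GENCODE release 29. For 443 of them this was exactly 1 gene, and the most widespread occurred in 44. These matches describe where such letters occur, and the counts cannot be assigned to those genes.

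The units on which the results turn are written below as the table names them, with the named unit in capitals and its next copy in lower case. The largest rises and falls are those among called members with a mean count of at least 50 and no overlap between groups.
Most abundant pyrimidine tetramer, read against its complement: TCCCtccc
Its purine-only complement: GGGAggga
Tetramer that holds the binding core of ETS transcription factors: GGAAggaa
Tetramer of the set that fell as a whole in both RSeT groups: CCATccat
Hexamer that opens SVA retrotransposons: CCCTCTccctct
Telomere unit, as read on the C-rich strand: CCCTAAccctaa
Most abundant member: AGCAGTagcagt
Written as a hexamer but a triplet by its sequence: CTGCTGctgctg
Largest fall from primed to RSeT: GGCTGATggctgat
Absent from both primed libraries: GACCCTGgaccctg
Largest rise with the inhibitors: CCTTCTCccttctc
Largest fall with the inhibitors: TCCTCAGtcctcag
Rotation that left its family: AGGATGaggatg

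Repeat counts per library ranged from 11520770 to 38312112, and 229446 to 661695 of them fell on members. HERVH-int, the internal part of an endogenous retrovirus of pluripotent cells, had 23829 to 26519 CPM in primed cells, 73442 to 75615 in RSeT and 114855 to 118627 in RSeT+DT. LTR5_Hs, the long terminal repeat of HERVK and active in naive cells, had 327 to 365 CPM in primed and 3974 to 4247 in the RSeT groups, and LTR7Y 28.9 to 32.7 against 61.5 to 73.2. Of 6 repeats used as trophoblast markers, only LTR17 was higher in all 4 RSeT and RSeT+DT libraries (452 to 577 CPM) than in both primed libraries (166 and 171). LTR10A (60.6 and 65.7 CPM in primed cells against 36.3 to 52.8), LTR2B (55.5 and 57.6 against 42.3 to 55.5, barely apart in RSeT) and MER21A (329 and 346 against 224 to 315) were lower, LTR8B lay between 306 and 330 in all libraries, and MER41B had 197 and 208, then 237 and 246, then 192 and 206. Their part in the results below was not tested. CPM values share 1 total, so an entry's CPM also depends on such abundant entries. Whether changed cell composition or changed RNA per cell lay behind any value cannot be told apart in bulk RNA.

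Members were spread over a wide range of abundance. Their mean CPM over the 6 libraries ran from 0.0639 to 539 with a median of 0.895, and 31 members were at 100 CPM or above while 1168 were under 1. The 10 highest members held 13.4% of all member CPM and the 100 highest held 50.3%. Hexamers carried most of it, with summed levels of 11645 ± 256 CPM in primed cells, 9188 ± 11.02 in RSeT and 11195 ± 163 in RSeT+DT (SD, n = 2). The 112 tetramers followed at 4902 ± 142, 3705 ± 59.2 and 3847 ± 0.384 CPM.

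As a whole the members took up less of the repeat RNA in RSeT than in either other group. Their share of all repeat counts was 2.27% ± 0.0632 in primed cells, 1.73% ± 0.0102 in RSeT and 2.01% ± 0.0213 in RSeT+DT (SD, n = 2). The libraries of the 3 groups did not overlap, and the smallest 2-sided p that an exact permutation test can give for 2 against 2 libraries is 0.333, so the shares are given without a test. GC-rich repeats whose unit does hold a CpG went from 1.29% to 0.985% and 1.27%. Simple repeats with units of 1 to 3 bases went from 4.58% to 3.83% and 4.46%. AT-rich repeats with units of 4 or more bases went from 1.41% to 1.35% and 1.41%. Against the counts of interspersed repeats and satellites alone, the members stood at 3.66%, 2.41% and 3.21%, in the same order.

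**Figure D1:**
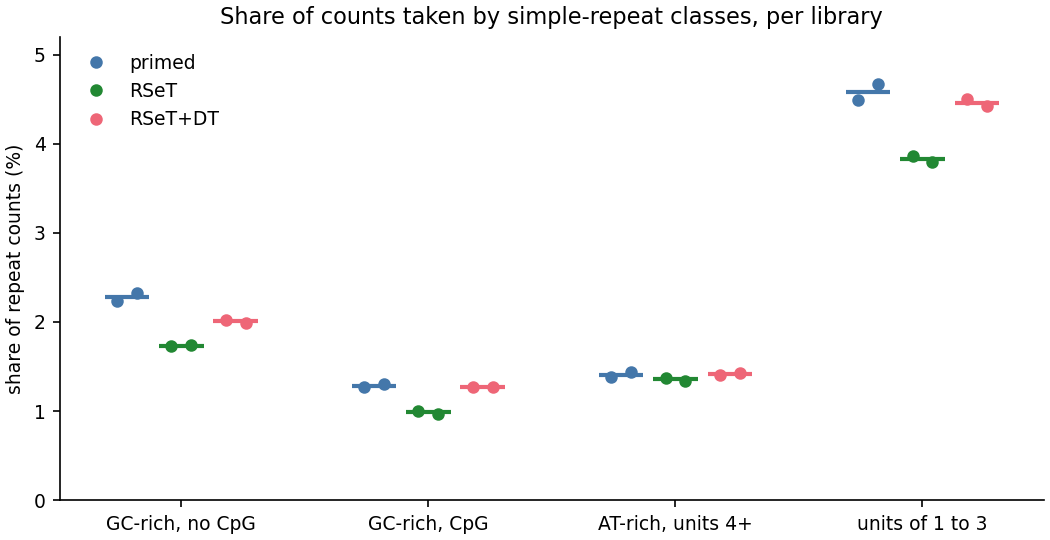
Share of repeat counts (%, y axis) taken by 4 classes of simple repeats, with 1 point per library and a bar at the mean of the 2 libraries of a group. GC-rich repeats without CpG lie near 2.27% in primed cells, 1.73% in RSeT and 2.01% in RSeT+DT, while the libraries of AT-rich repeats lie between 1.34% and 1.43%.

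Single members were tested with edgeR's quasi-likelihood test over all 4665 entries with enough counts. Of the 2250 members, 1377 were tested, and these held at least 98.8% of member counts in every library. The 873 untested members had a mean CPM of at most 0.653. Counts of members below read against the share of all tested entries that was called at an edgeR adjusted p under 0.05, the background.

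From primed to RSeT, members mostly went down. The test called 507 of 1377 members lower (36.8%, background 23.8%) and 120 higher (8.71%, background 22.8%). DESeq2 called 320 lower and 78 higher, and interspersed scaling and the 2 limma fits called 76 to 79 higher. Lower calls numbered 669 with interspersed scaling and 651 with library totals. Their median log2 fold change was -0.32, against -0.03 over all tested entries. GC-rich repeats with CpG were called lower in 40.7% and higher in 8.35%, close to the members' own shares. Simple repeats with units of 1 to 3 bases were called lower in 52.5% and higher in 8.75%. AT-rich repeats were called lower in 11.3% and higher in 20.3%. Interspersed repeats and satellites, which count in the background, were called lower in 8.32% and higher in 50.8%. At the rule's edge, the 367 tested members with exactly 50% GC had 30.2% lower calls and 10.6% higher. The 209 tested entries from 40% to under 50% GC, just outside it, had 16.7% and 21.1%. The median log2 fold change was -0.21 inside the edge and 0.11 outside. In RSeT+DT against RSeT it was 0.16 inside and -0.08 outside, and in RSeT+DT against primed -0.09 and -0.10. All entries of the outer band had a median mean CPM of 0.321, against 0.925 inside. What that contributed to the calls was not tested.

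With the inhibitors, most of the calls went the other way. In RSeT+DT against RSeT, 458 members were called higher (33.3%, background 25.0%) and 54 lower (3.92%, background 17.4%), with a median log2 fold change of 0.24 against 0.03 over all entries. CpG-bearing GC-rich repeats had 53.0% higher calls, units of 1 to 3 bases 71.2% and AT-rich repeats 13.3%. Interspersed repeats and satellites had 5.55% higher and 54.3% lower calls. Among entries with a mean count of at least 50, 55.9% of members were called higher. The shares were then 73.8% for CpG-bearing GC-rich repeats, 27.7% for AT-rich repeats and 35.6% for all entries. The difference between these classes was not itself tested. The lower calls numbered 26 without RSeT replicate 2, 32 without RSeT+DT replicate 2, and 21 with DESeq2 or with interspersed scaling. Scaled to library totals, 298 members were higher and 86 lower, which lowered the higher share of the calls from 89.5% to 77.6%. Interspersed scaling raised the higher calls to 611 and their share to 96.7%.

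Against primed cells, RSeT+DT showed no common direction. The test called 284 members higher (20.6%, background 25.1%) and 308 lower (22.4%, background 20.6%), and the median log2 fold change was -0.10. This split depended on the scaling: higher calls made up 48.0% of all calls with the trimmed-mean scaling, 24.8% (174 higher, 528 lower) with library totals, and 53.1% (311 higher, 275 lower) with scaling to interspersed repeats. CpG-bearing repeats had 35.3% higher and 14.9% lower calls in the same comparison. Among the 730 members with a mean count of at least 50, 31.6% were called higher and 23.6% lower, with a median log2 fold change of 0.06, against 34.0%, 23.4% and 0.07 for all entries of that depth. The 3 comparisons share their groups, so their calls are not independent of each other. A change of scaling moves every entry alike: library totals shifted the median of all entries by -0.13, -0.15 and -0.29 on the log2 scale in the 3 comparisons, and interspersed scaling by -0.16, 0.22 and 0.06.

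**Figure D2:**
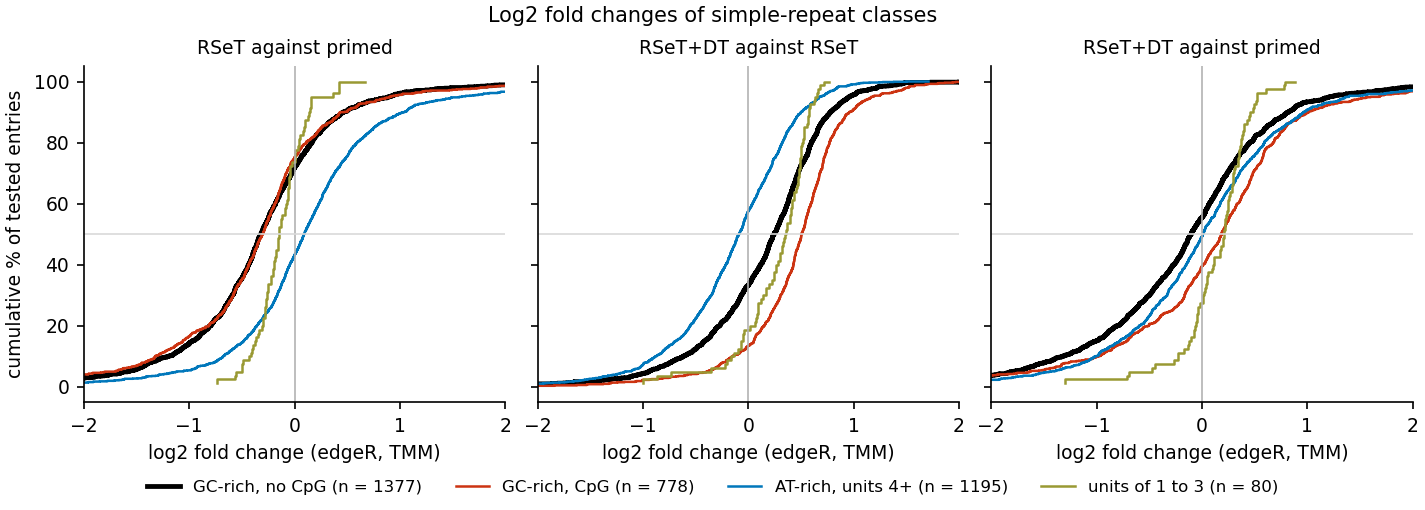
Cumulative share of tested entries (%, y axis) up to a given log2 fold change (x axis, shown from -2 to 2) in the 3 comparisons, for 4 classes of simple repeats. The thick curve of GC-rich repeats without CpG crosses 50% at -0.32, 0.24 and -0.10, to the left of the AT-rich curve in the first panel and to its right in the second.

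The richest units had the largest share of calls. Among the 203 tested members with a GC share of 75% or more, 120 fell in RSeT against primed (59.1%) and 6 rose, and with the inhibitors 96 rose (47.3%) and 4 fell. Members with 50% GC had 30.2% falls and 32.4% rises in these comparisons, and those between had 34.2% falls and 30.1% rises. The share of falls thus climbed over the GC bands, mostly at the last, whereas the share of rises did not climb steadily. The median log2 fold change did not jump at the last band. From primed to RSeT it was -0.208 at 50% GC, -0.355 in the band between and -0.359 at 75% or more. With the inhibitors it was 0.161, 0.269 and 0.291 in the same order. Members with 75% GC or more were also more abundant than those with 50%, with a median mean CPM of 6.98 against 0.925, and what that contributed to the calls was not tested. By unit length, rises with the inhibitors were called for 260 of 601 hexamers (43.3%), 41 of 108 tetramers (38.0%), 49 of 167 pentamers (29.3%) and 108 of 500 units of 7 to 10 bases (21.6%). Falls from primed to RSeT varied less, from 34.6% for units of 7 to 10 bases to 40.7% for tetramers and pentamers. The median log2 fold changes ranked the other way. They were -0.21 for tetramers, -0.27 for pentamers, -0.30 for hexamers and -0.41 for units of 7 to 10 bases. With the inhibitors they were 0.14, 0.19, 0.31 and 0.21. Abundance fell with unit length, from a median mean CPM of 16.6 for tetramers to 0.426 for units of 7 to 10 bases. What that contributed to the calls by length was not tested. Units with a run of 3 or more C had 42.7% falls in RSeT against primed. Those with a run of 3 or more G had 37.5%, near the 36.8% of all members, and units with neither run had 34.4%.

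**Figure D3:**
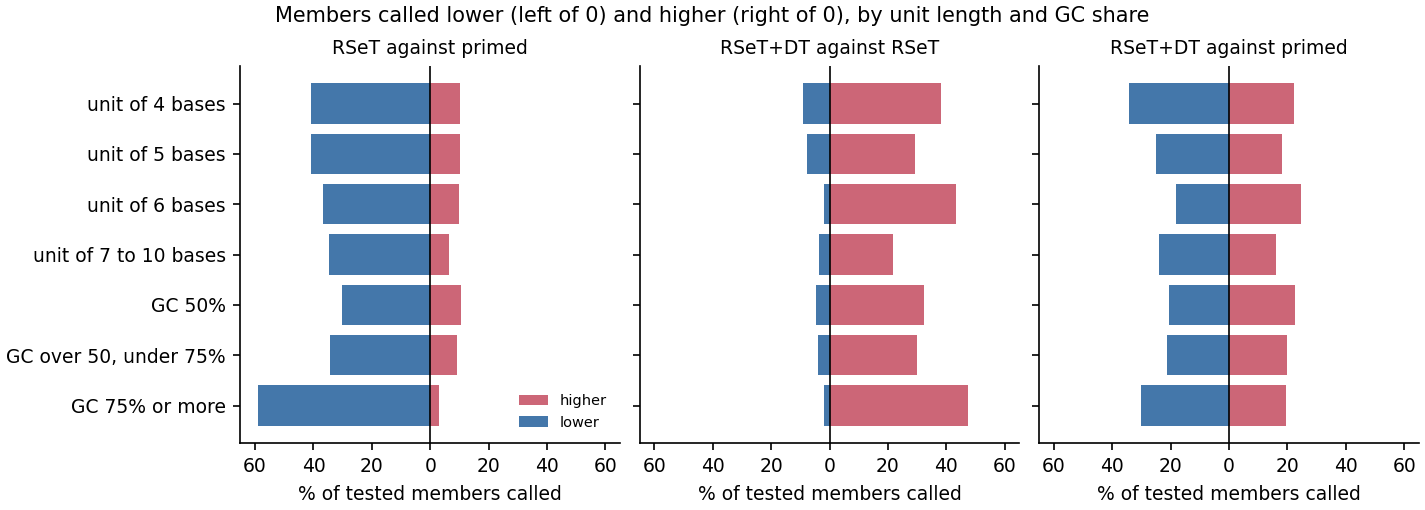
Share of tested members (%, x axis) called lower, drawn to the left of 0, and higher, drawn to the right, by unit length and by GC share in the 3 comparisons. The bars of members with 75% GC or more reach 59.1% lower in RSeT against primed and 47.3% higher in RSeT+DT against RSeT.

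The most abundant members followed the general course with their own sizes. (AGCAGT)n, first by mean level, had 574 and 573 CPM in primed cells, 432 and 412 in RSeT, and 642 and 598 in RSeT+DT. It fell by 0.31 on the log2 scale in RSeT (SE 0.05, edgeR adjusted p 1.21e-05) and rose by 0.71 with the inhibitors (adjusted p 3.05e-11), and no groups overlapped. (CTGCTG)n had 339 and 332 CPM, then 304 and 276, then 431 and 399. Its RSeT value did not pass the test (log2 fold change -0.08, adjusted p 0.229) and its rise with the inhibitors did (0.67). (AGCCA)n stayed low: 297 and 314 CPM in primed became 162 and 161 in RSeT and 187 and 185 in RSeT+DT. (GAAG)n was the only member of the 10 highest that rose in both steps, from 201 and 206 CPM to 258 and 266 and then 350 and 349. Of the 10 highest, 8 fell in RSeT and all 10 rose in RSeT+DT against RSeT, though with library totals (CAGCTC)n no longer passed (log2 fold change 0.04, adjusted p 0.592). Calls were more frequent at higher counts. At a mean count of at least 50, 48.1% of members and 27.3% of all entries were called lower in RSeT against primed. In RSeT+DT against RSeT, 55.9% of members and 35.6% of all entries of that depth were called higher.

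Families of units kept to different courses. Their counts read against all tested members, of which 36.8% fell and 8.71% rose in RSeT against primed. With the inhibitors 33.3% of members rose and 3.92% fell. The background was 23.8% falls and 22.8% rises in the first comparison, and 25.0% rises and 17.4% falls in the second. In RSeT+DT against primed, 22.4% of members fell (background 20.6%). The unit ATCC with its rotations and complement, 9 entries in all, fell in every one of them in RSeT against primed and again in every one in RSeT+DT against primed. Its summed level was 696 and 741 CPM in primed cells, 412 and 443 in RSeT, and 336 and 353 in RSeT+DT, with no overlap between groups. (CCAT)n dropped most among its abundant names, from 149 and 160 CPM to 51.5 and 57.4 and then 49.6 and 57.0 (log2 fold change -1.38 in RSeT). (TGGA)n had 112 and 127, then 73.8 and 74.1, then 58.1 and 60.1 CPM. All 9 calls held under library totals and under scaling to interspersed repeats. The step from RSeT to RSeT+DT did not: 4 fell and 0 rose with the trimmed-mean scaling, 6 fell and 0 rose with library totals, and 0 fell and 2 rose with interspersed scaling.

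The GGGA family fell and then rose in part. Of its 8 entries, 7 fell in RSeT against primed, also under both other scalings, and 6 rose in RSeT+DT against RSeT, where library totals left 3 rises and 1 fall. Its summed level was 990 and 1027 CPM in primed cells, 652 and 659 in RSeT, and 706 and 682 in RSeT+DT. (TCCC)n followed this course with 234 and 248, then 158 and 155, then 179 and 168 CPM. (GGAG)n went from 107 and 118 CPM to 29.9 and 29.8 and stayed at 32.6 and 29.9, a fall of 1.55 on the log2 scale between RSeT+DT and primed that exceeded every other in the family. (AGGG)n, at 19.5 and 21.6, then 18.8 and 19.2, then 16.1 and 14.5 CPM, was called in none of the comparisons.

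GGAA repeats did not share the fall. Of 8 entries, 3 rose and 1 fell in RSeT against primed, and with the inhibitors 5 rose and 1 fell. Library totals changed these to 1 rise and 3 falls, and 2 rises and 2 falls, so no family direction holds across scalings. Rotations of this unit went opposite ways: (GAAG)n rose by 0.57 on the log2 scale with the inhibitors, whereas (GGAA)n itself fell by 0.65, from 12.8 and 13.9 CPM in RSeT to 5.97 and 9.38. Rotations name the same repeat from another starting base, and each entry holds the copies that the annotation gave that name.

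CCTG repeats, known from an expansion in a form of myotonic dystrophy, fell in 5 of 8 entries in RSeT (all members 36.8%). With the inhibitors 4 of 8 rose (all members 33.3%). Library totals gave 7 falls and then 3 rises in these comparisons, and interspersed scaling 7 falls and then 4 rises. (GGCA)n had the largest change among them, from 131 and 133 CPM to 61.5 and 59.1 and then 66.7 and 68.7. The CAGA family had 3 falls among 8 in RSeT (37.5%, near the share of all members), and 4 rises and 1 fall with the inhibitors. Library totals gave 5 falls, then 3 rises and 1 fall. Interspersed scaling gave 5 falls, then 7 rises and 0 falls. (CAGA)n had 88.1 and 90.6, then 66.1 and 71.1, then 82.4 and 84.6 CPM.

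Units listed as hexamers but built of a shorter unit included the CTG triplet, known as a site of disease expansions. Its 6 members summed to 471 and 465 CPM in primed cells, 432 and 402 in RSeT, and 589 and 562 in RSeT+DT. With the inhibitors 4 of the 6 rose and none fell, also with library totals. The AG dinucleotide written as a tetramer or hexamer had a summed CPM of 349 and 376, then 236 and 245, then 204 and 203. The difference between primed and RSeT lay in few names: (CTCT)n had 164 and 185, then 84.0 and 88.7, then 73.3 and 68.7 CPM, and (CTCTCT)n 39.6 and 42.8, then 13.3 and 11.3, then 12.9 and 11.2. These were the 2 of 8 entries that fell in RSeT, (GAGAGA)n rose (log2 fold change 0.93), and (TCTC)n stayed between 101 and 120 CPM in all libraries and was not called. With the inhibitors 2 of the 8 entries fell and 0 rose with the trimmed-mean scaling, but 1 fell and 2 rose with interspersed scaling. The triplet and dinucleotide families, and the AGGATG family below, were picked after their values had been seen.

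In the AGGATG family, all 12 entries rose in RSeT+DT against RSeT, with 7 of 12 rising under library totals. From primed to RSeT 7 fell and 1 rose. The exception was (AGGATG)n, which had 14.1 and 14.5 CPM in primed cells, 34.9 and 30.3 in RSeT, and 56.2 and 51.3 in RSeT+DT, a log2 fold change of 2.20 between the outer groups. (TCATCC)n, its most abundant relative, had 200 and 211, then 165 and 152, then 182 and 182 CPM.

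The telomere unit was scarce. (TTAGGG)n was listed at 0 counts in all 6 libraries of the raw table. The 11 other names of this unit summed to 11.2 and 11.5 CPM in primed cells, 7.36 and 9.37 in RSeT, and 6.12 and 5.73 in RSeT+DT. Of the 6 names with enough counts, 1 rose in RSeT against primed, (GTTAGG)n, whereas library totals gave 0 rises and 2 falls. Against primed, RSeT+DT had 1 rise and 2 falls. In RSeT+DT against RSeT their log2 fold changes ran from -1.46 to 0.34, with edgeR adjusted p of 0.104 or above. (CCTAAC)n, the most abundant, had 4.51 and 5.28, then 2.92 and 3.96, then 2.83 and 2.95 CPM, and was called in none of the comparisons. The SVA hexamer unit had 12 names and summed to 98.0 and 112 CPM in primed cells, 78.0 and 79.1 in RSeT, and 87.3 and 81.2 in RSeT+DT. Of its 10 tested names, 4 fell and 2 rose in RSeT, where library totals and interspersed scaling each gave 6 falls and 1 rise. With the inhibitors 2 rose and 0 fell, where library totals gave 2 rises and 1 fall, and interspersed scaling 4 rises and 0 falls. (GAGGGA)n showed the largest fall of this unit in RSeT, from 6.30 and 6.16 CPM to 2.17 and 1.63.

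Single members with large changes were mostly of modest level. (GGCTGAT)n fell by 4.05 on the log2 scale from primed to RSeT (SE 0.22, edgeR adjusted p 3.23e-14), from 18.1 and 16.8 CPM to 0.679 and 1.51, and remained at 1.22 and 1.13 in RSeT+DT. (AGGTGGC)n had 8.02 and 8.73, then 0.60 and 0.815, then 0.919 and 0.434 CPM. (CCACAGT)n had 12.9 and 17.1, then 2.06 and 2.04, then 3.37 and 3.73 CPM, a fall of 2.72 on the log2 scale followed by a rise of 0.94 with the inhibitors. The primed libraries stood above all 4 others for each of these 3. (TCTGAG)n, at 8.61 and 8.07 CPM in primed cells, had 1.28 in each RSeT library and 0.689 and 1.13 in RSeT+DT.

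Rises from primed to RSeT were led by an entry that had been absent. (GACCCTG)n had 0 counts in both primed libraries and 403 in the RSeT libraries, which put it at least 73.7-fold higher than a floor of 3 counts over the primed group. It had 7.31 and 7.16 CPM in RSeT and 5.66 and 3.47 in RSeT+DT. (ACCAGTGC)n was likewise at 0 in primed cells, with 78 counts in RSeT, at least 14.3-fold higher than that floor. These floors cover counting error only. (GAGCAGG)n had 5.46 and 6.97 CPM in primed cells, 25.1 and 28.9 in RSeT, and 30.5 and 22.5 in RSeT+DT. (CCTGCT)n, the most abundant of the 8 largest rises at a mean count of at least 50, had 21.6 and 23.3, then 71.7 and 74.7, then 47.5 and 47.1 CPM, so it rose by 1.84 on the log2 scale and then fell by 0.47.

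With the inhibitors, (CCTTCTC)n rose most among members with a mean count of at least 50. It had 10.3 and 9.47 CPM in primed cells, 14.6 and 14.4 in RSeT, and 37.0 and 36.5 in RSeT+DT (log2 fold change 1.49, SE 0.10, edgeR adjusted p 7.28e-12). (CTTGGC)n had 3.80 and 4.18, then 1.80 and 1.92, then 5.36 and 3.82 CPM, so that it fell and returned. (TCCTCAG)n fell most among them, from 4.33 and 4.83 CPM in RSeT to 0.765 and 0.868 (log2 fold change -2.31), below its primed values of 2.26 and 3.23. (CAGCACC)n had 7.31 and 5.82 CPM in RSeT against 0.995 and 2.95 in RSeT+DT, where the 2 libraries lay far apart but both stayed below the RSeT libraries.

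**Figure D4:**
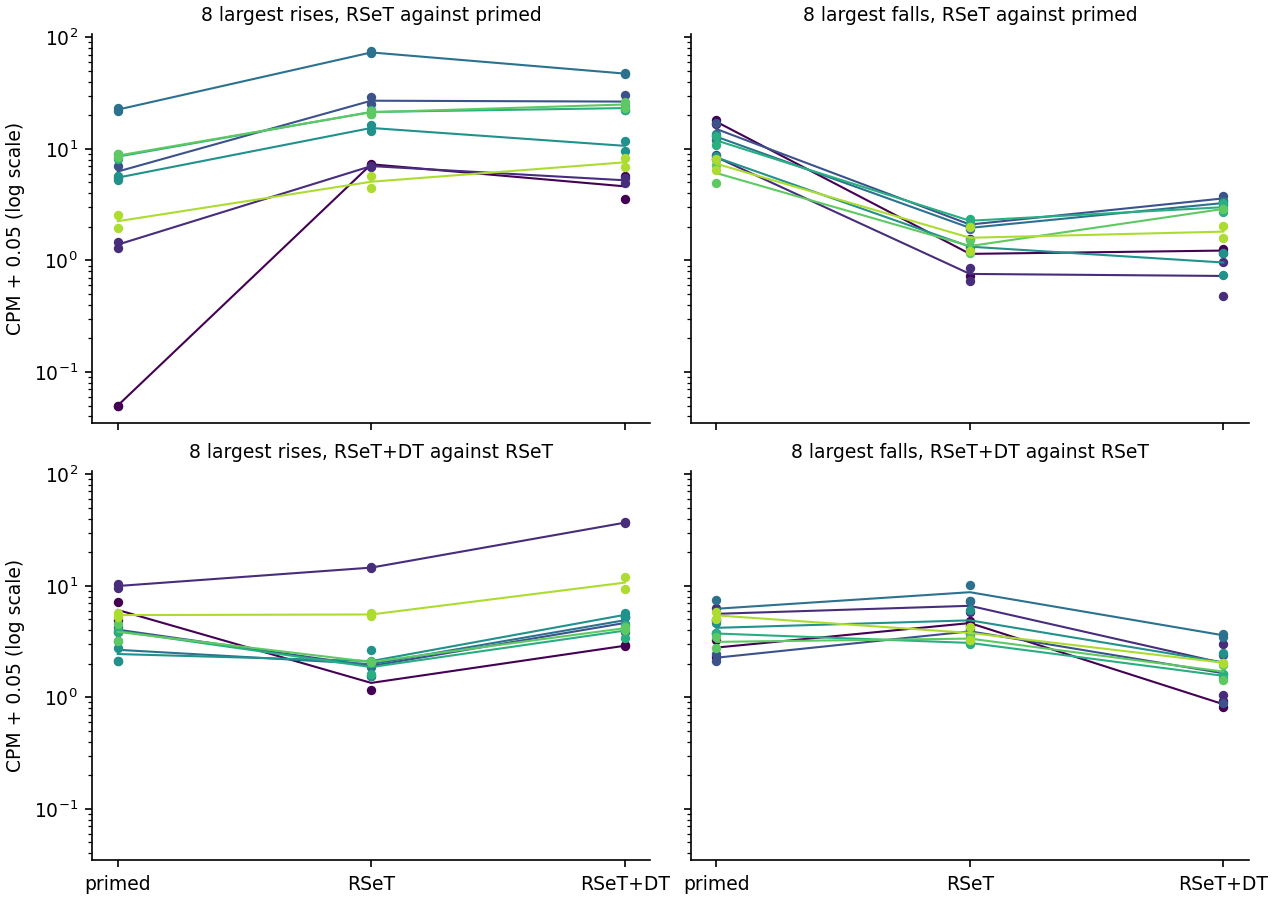
CPM + 0.05 (log scale, y axis) of the 8 members with the largest rises and the 8 with the largest falls among those called with a mean count of at least 50 and no overlap between groups, in RSeT against primed (upper panels) and in RSeT+DT against RSeT (lower panels); points are libraries and lines join the means of the 2 libraries of each group. The line that starts at the floor of the upper left panel is the member with 0 counts in primed and 7.31 and 7.16 CPM in RSeT.

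The 2 complementary spellings of a unit were rarely equal. Both spellings were listed, and differed in their share of pyrimidines (C and T), for 237 units. The spelling richer in pyrimidines had the higher summed CPM in 146 of them (61.6%). Units with equal shares were left out. Where 1 spelling held only pyrimidines and the other only purines, the pyrimidine one was higher in 20 of 21 units, with a median ratio of 14.9. The ratio of their sums was 4.58 and 4.66 in primed cells, 4.15 and 4.24 in RSeT, and 3.99 and 3.92 in RSeT+DT, so all 6 libraries had it. (TCCC)n at 234 and 248 CPM in primed against (GGGA)n at 50.4 and 50.6 is an example. The GGAA unit had no such excess, with a mean sum of 411 CPM over its pyrimidine names and 366 over its purine names, of which (GAAG)n alone held over 200 in every library. The same table held low-complexity entries named by purines, GA-rich at 8297 to 10191 CPM and G-rich at 5229 to 6809, with no C-rich or CT-rich counterpart. Whether purine-rich copies were booked under those names, and whether counting was done by strand, was not tested. This comparison was chosen after the values had been seen.

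**Figure D5:**
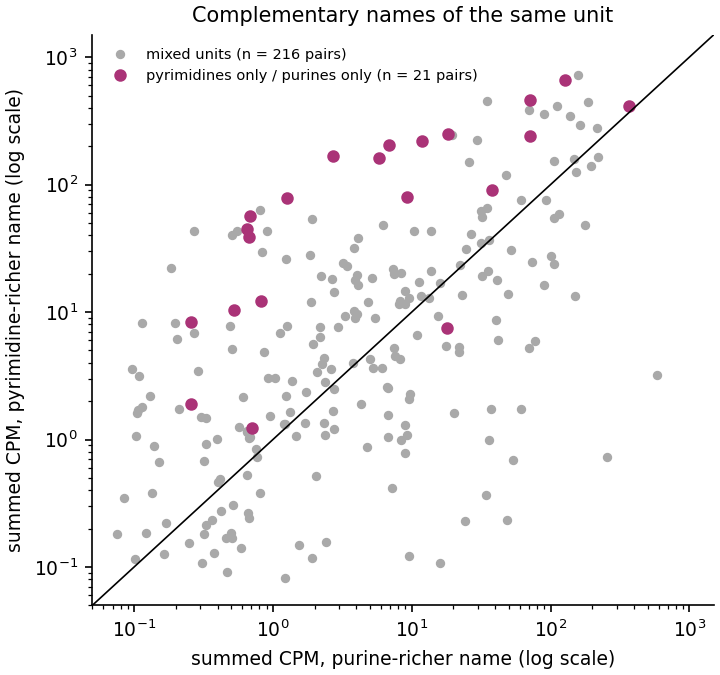
Summed CPM, as the mean of the 6 libraries (both axes on a log scale), of the pyrimidine-richer spelling of a unit against its purine-richer spelling, with 1 point per unit and a line of equality. Of the 21 units with a pyrimidine-only and a purine-only spelling, 20 lie above the line.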

How the data were processed

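Per the submitters' processing notes, reads were handled with Trimmomatic 0.39, STAR 2.7.8a and featureCounts (Subread 2.14.2) on GRCh38 (hg38). No source used here gives the repeat annotation, how multi-mapping reads were counted or whether counting used strand. The authors deposited raw counts per repeat entry and a second table in CPM, which equals the counts scaled to the total of the listed repeats and holds entries with a total of at least 10. Copies of a repeat cannot be placed on the genome from these tables, and reads that fit several copies could shift between entries.

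From the counts, edgeR 4.0.16 in R 4.3.3 (filterByExpr with 10 and 15 as minimum counts, trimmed-mean scaling TMM, quasi-likelihood test, Benjamini-Hochberg adjustment over 4665 entries, threshold 0.05) fitted all 6 libraries together with 3 residual degrees of freedom. The common biological coefficient of variation was 5.49%. The script was tested on simulated data. Alternatives were DESeq2 1.42.0, limma 3.58.1 on log2(CPM + 1) and log2(CPM + 0.1), other scalings and filters, and leaving out each library. Same-numbered libraries did not deviate together (correlations 0.0228, 0.0295 and -0.0413), so numbers were not used as pairs. Named members were the 8 largest rises and falls per comparison among those that passed with a mean count of at least 50 and groups without overlap, the 10 highest by mean CPM, and fixed units; others were picked after their values were seen. Members and lists were chosen with earlier results of these data known.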

Additional observations from a re-analysis of the deposited data

How the results depend on the processing

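Direction by majority of calls held in RSeT against primed and in RSeT+DT against RSeT under every alternative run, but counts did not. Members called higher in RSeT against primed (120 with edgeR and TMM) numbered 76 with interspersed scaling, 71 of 730 with a mean count of at least 50, 78 with DESeq2, and 79 and 77 with limma on log2(CPM + 1) and log2(CPM + 0.1); DESeq2 called 320 lower in place of 507. In RSeT+DT against RSeT, library totals gave 298 higher and 86 lower, limma 286 and 283 higher and 89 and 103 lower, and interspersed scaling, DESeq2 and the mean count of 50 gave 21, 21 and 35 lower. In RSeT+DT against primed, library totals gave 174 higher and 528 lower, and limma 178 and 177 higher and 563 and 550 lower. Both limma fits used CPM scaled to library totals; the cause of the other shifts was not tested. With 1 library left out at a time, higher and lower members ranged from 84 to 140 and 349 to 534 in RSeT against primed, 333 to 463 and 26 to 55 in RSeT+DT against RSeT, and 236 to 289 and 240 to 302 in RSeT+DT against primed. The lower count of the middle comparison, 54 with all libraries, was 26 without RSeT replicate 2 and 32 without RSeT+DT replicate 2; the lone library of a group is then assumed to vary like the other groups. As shares of interspersed and satellite counts the members stood at 3.6612%, 2.4064% and 3.206%. Some named members changed sign: with interspersed scaling in RSeT+DT against RSeT, (CCCTCT)n 0.0188, (TTCC)n 0.1253, (CAGG)n 0.1475, (TGGA)n 0.0495 and (TCCA)n 0.065, and in RSeT+DT against primed (CAGCTC)n 0.0134. With library totals and the 2 limma fits in RSeT+DT against primed, (CCCAGC)n had -0.0319, -0.0327 and -0.0328, (CCTG)n -0.0821, -0.0813 and -0.0824, (GGGA)n -0.2528, -0.2526 and -0.2576, (CAGA)n -0.0965, -0.0953 and -0.0963, and (TCTG)n -0.256, -0.2528 and -0.2573. With a mean count of at least 50, (GGGA)n had -0.0463 and (TCTG)n -0.0489; with 1 library left out, (GGGA)n ranged from -0.0734 (without RSeT+DT replicate 1) to 0.165, (TCTG)n from -0.0219 (without primed replicate 1) to 0.0982, and (CTGCTG)n in RSeT against primed from -0.1552 to 0.0145 (without RSeT replicate 2). Thinning RSeT replicate 1 to the total of replicate 2, an alternative chosen after seeing the data, changed no named call. A fit with the replicate number as a block gave 111 higher and 495 lower, 444 and 52, and 280 and 306, in the order of the comparisons, and changed 1 of 108 calls of named members.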
